A study of Mus musculus with 6 samples.

Results

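The 10 genes described here encode the Myc and Max network of transcription factors, and their mRNAs were measured on polysomes, the clusters of ribosomes that translate an mRNA. The members were chosen by symbol alone (Myc, Mycn, Max, Mxd1, Mxd3, Mxd4, Mxi1, Mnt, Mlx and Mga), and all 10 were measured, of 19937 genes on the array. The cells were clone #483 of a T-cell acute lymphoblastic leukaemia (T-ALL) of a C57BL6 mouse. Treated cells received 100 µM 4EGI-1 for 2 h, a compound made to keep eIF4E, which binds the mRNA cap, from joining its scaffold eIF4G. RNA from pooled polysome fractions of a sucrose gradient was measured on 6 arrays, 3 of control cells and 3 of treated cells. Controls are titled untreated while the protocol names DMSO, so whether they received the solvent is not settled. All samples come from 1 clone, no other genotype or dose was compared, and the design text calls the samples biological replicates without saying what separated them.

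Myc is a basic helix-loop-helix leucine zipper protein that binds DNA as a dimer with Max, mostly at E-box elements, and activates genes of growth, ribosome production and the cell cycle. The Mxd proteins, Mxi1 and Mnt compete for Max and recruit Sin3 and histone deacetylases to repress the same kind of gene, while Mga joins Max to a repressive Polycomb-type complex. Mlx is a Max-like partner that pairs with Mlxip (MondoA), Mlxipl (ChREBP) and some Mxd proteins. In T-ALL, MYC is a direct target of the Notch1 receptor and a main driver of growth, and its mRNA is often listed among those sensitive to eIF4E.

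Polysomal Mga was higher with 4EGI-1, and Mxd3, Mlx and Mnt were lower, all by less than 1.5-fold. Myc itself was 1.14 times its control level and did not pass the test. Of the 10 members, 1 rose, 3 fell and 6 did not pass at a limma adjusted p under 0.05, against 22.9% of all genes that passed in either direction, 11.5% that rose and 11.5% that fell. All 10 members lay at or above the median signal of the array's probe sets (6.40 on the log2 scale), and of the 11059 genes in that range 36.1% passed, 17.3% upwards and 18.9% downwards. The share of members that passed, 40.0%, was therefore near that of genes with like signal. The median log2 difference of the members was -0.13, beside -0.03 over all genes.

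The letters of the E-box, CACGTG, were searched in the 250 bases upstream of each RefSeq start (assembly GRCm38.p6), because Myc, Mxd and Mlx dimers bind this element. The word reads the same on both strands. Promoters were listed for 9 of the 10 members, 11 in all, with none for Myc. Those of 3 members held the word: Mlx, Mnt and Mxd4. Each is shown as 30 bases on the strand of its gene, with the E-box in capitals, since Mlx and Mnt are among the members that fell. The windows lie at chr11:101087238-101087267 (plus strand) for Mlx, chr11:74830789-74830818 (plus strand) for Mnt and chr5:34187912-34187941 (minus strand) for Mxd4. The first base of the word lies 40, 123 and 219 bases before the listed start in the same order.
Mlx: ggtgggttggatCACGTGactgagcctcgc
Mnt: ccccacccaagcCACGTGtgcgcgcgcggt
Mxd4: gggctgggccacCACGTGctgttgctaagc
While the members were counted by gene, of all 32851 listed promoters, counted singly, 6.02% held the word in the same window. Among the genes measured, 1266 had such a promoter, of which 10.5% rose and 16.8% fell, with a median log2 difference of -0.04. Of the 14347 genes whose listed promoters lacked it, 11.9% rose and 11.7% fell, with a median of -0.02. The genes with the word also had a higher median signal (7.53 against 6.68), and its part in this comparison was not tested. A match of letters is a description and not evidence of binding.

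**Figure D1:**
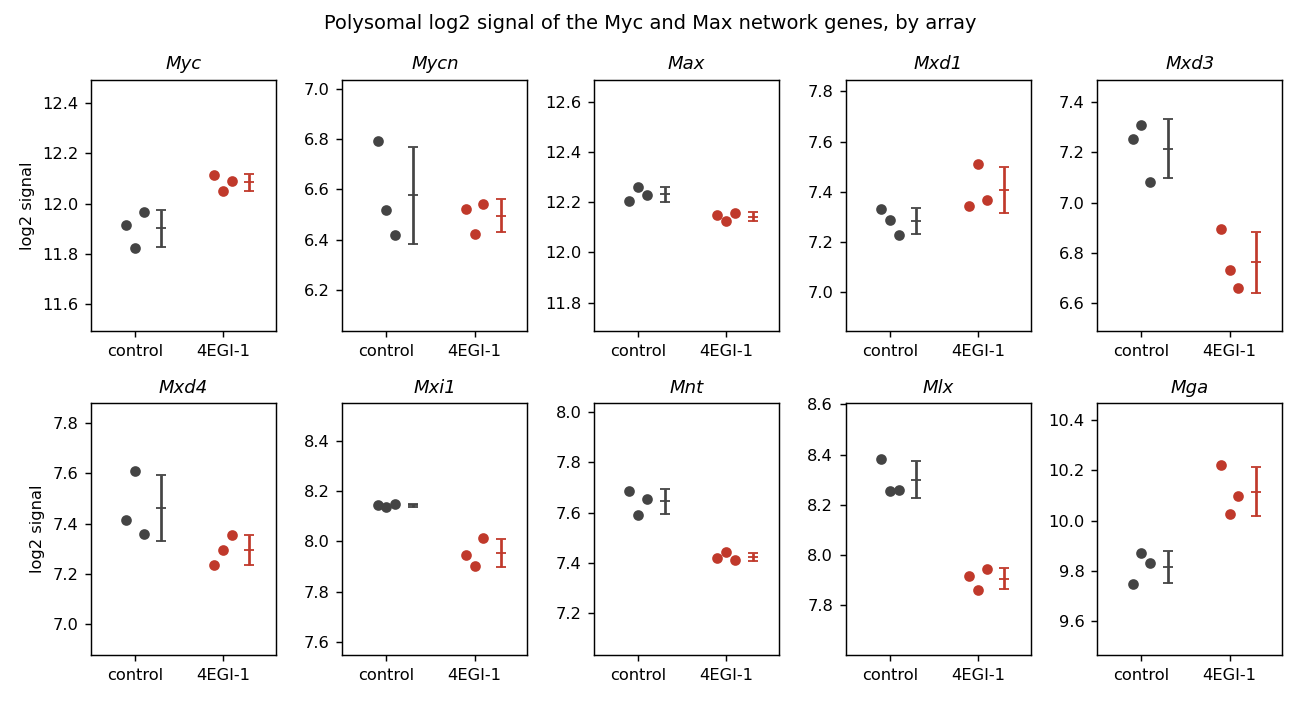
Log2 signal of each member on each of the 6 arrays, control in grey and 4EGI-1 in red; points are arrays, the bar beside them is the mean ± SD (n = 3 each), and each panel spans 1 log2 unit around its own gene. The groups are apart in 9 of 10 panels and overlap for Mycn, and the widest gaps are those of Mlx, Mxd3 and Mga.

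The activating members came first in the comparison. Myc gave a log2 signal of 11.91, 11.82 and 11.97 on the control arrays and 12.11, 12.05 and 12.09 on the treated arrays. All 3 treated values lay above all 3 controls, by a small margin. The difference was 0.18 ± 0.06 on the log2 scale (SE; limma adjusted p = 0.0801), with a 95% interval of 0.04 to 0.33 before adjustment, which is 1.02 to 1.26 times the control level. The adjusted p of Myc ran from 0.00320 to 0.224 over 14 alternatives, and it passed in 3 of them: 0.0251 when genes below the table median were left out, 0.0205 with quantile-normalized arrays and 0.00320 with a trended prior. The interval held no value below 0.

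Mycn, the neural paralogue of Myc, gave 6.79, 6.52 and 6.42 in controls and 6.52, 6.42 and 6.54 with 4EGI-1. The groups overlapped, and the first control was the highest of the 6 values. The difference was -0.08 ± 0.10 (SE; adjusted p = 0.639), and without control replicate 1 it was 0.028. Mycl, the third paralogue, differed by 0.06 ± 0.09 (adjusted p = 0.700) and took the other sign without 4EGI-1 replicate 3 (-0.030).

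Max, the shared dimer partner, gave 12.20, 12.26 and 12.23 in controls and 12.15, 12.12 and 12.16 with 4EGI-1. Treated values were the lower ones in every case, but by little. The difference was -0.09 ± 0.06 (SE; limma adjusted p = 0.340), with a 95% interval of -0.22 to 0.04.

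The Mxd proteins are antagonists of Myc that pair with Max. Mxd3, which is known for expression in dividing cells, gave 7.25, 7.31 and 7.08 in controls and 6.90, 6.73 and 6.66 with 4EGI-1. The groups did not overlap. It fell by 0.45 ± 0.09 (SE; limma adjusted p = 0.00704), to 0.731 times its control level, the largest difference of the 10 members, although 9.21% of all genes differed by more. It passed under all 14 alternatives, with an adjusted p of 0.000808 to 0.0319. In the RefSeq table Mxd3 overlaps Prelid1, a gene of mitochondrial lipid transfer, whose own probe set gave 10.77 ± 0.11 in controls and 10.36 ± 0.07 with 4EGI-1 (SD, n = 3 each). Prelid1 fell by 0.41 ± 0.08 (SE; limma adjusted p = 0.00635), close to the value of Mxd3, and probe positions that could separate the pair were not used here.

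Mxd1, an antagonist known from differentiating cells, gave 7.33, 7.29 and 7.23 in controls and 7.35, 7.51 and 7.37 with 4EGI-1. The lowest treated value lay just above the highest control. The difference was 0.12 ± 0.07 (SE; limma adjusted p = 0.265), with a 95% interval of -0.04 to 0.28. Mxd4 gave 7.42, 7.61 and 7.36 in controls and 7.23, 7.29 and 7.36 with 4EGI-1, so that the highest treated and the lowest control value nearly met. Its difference was -0.17 ± 0.08 (SE; adjusted p = 0.195), with a 95% interval of -0.35 to 0.02.

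Mxi1, a further Max-binding repressor, gave 8.14, 8.14 and 8.15 in controls and 7.95, 7.90 and 8.01 with 4EGI-1. The controls were almost equal and all treated values lay below them. The difference was -0.19 ± 0.06 (SE; limma adjusted p = 0.0559), on the far side of the threshold by little, and the adjusted p ran from 0.0156 to 0.147 over 14 alternatives. Mxi1 passed in 4 of them, which were the 2 filters on low signal, quantile-normalized arrays and the trended prior.

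Mnt, a broadly expressed repressor that pairs with Max or Mlx, gave 7.69, 7.59 and 7.65 in controls and 7.42, 7.44 and 7.41 with 4EGI-1. The treated arrays lay close together and below all controls. Mnt fell by 0.22 ± 0.06 (SE; limma adjusted p = 0.0284), to 0.858 times its control level. The call ended when any 1 array other than control replicate 2 was left out, with an adjusted p of 0.0578 to 0.0869 in those 5 fits, while the difference stayed between -0.25 and -0.20.

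Mlx, the partner of the glucose-responsive Mondo proteins, gave 8.38, 8.25 and 8.26 in controls and 7.92, 7.86 and 7.94 with 4EGI-1. The gap between the groups was wider than the range within either. Mlx fell by 0.39 ± 0.07 (SE; limma adjusted p = 0.00324), to 0.762 times its control level, and passed under all 14 alternatives with an adjusted p of 0.000264 to 0.0136. Mlx overlaps Psmc3ip, a gene of meiotic recombination, in the RefSeq table, and Coasy lies within 1 kb of it. Psmc3ip fell by 0.39 ± 0.06 (SE; adjusted p = 0.00259), the same size as for Mlx, and Coasy, an enzyme gene of coenzyme A synthesis, differed by -0.18 ± 0.10 (adjusted p = 0.246). The part of these neighbours in the value of Mlx was not tested.

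The partners of Mlx were read from the list of other network genes. Mlxip fell by 0.35 ± 0.06 (SE; limma adjusted p = 0.00555). It gave 9.17, 9.17 and 9.15 in controls and 8.86, 8.73 and 8.86 with 4EGI-1, with no overlap. Mlxipl, which is best known from liver, differed by 0.04 ± 0.07 (adjusted p = 0.774), and by -0.0098 without 4EGI-1 replicate 3. The probe sets of both subunits of the Mlx and Mlxip dimer gave lower polysomal signal. For Mlx, the part of the overlapping gene Psmc3ip was not tested.

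Mga, a large protein with a T-box and a Max-binding domain, gave 9.75, 9.87 and 9.83 in controls and 10.22, 10.03 and 10.10 with 4EGI-1. All treated values were the higher ones. Mga rose by 0.30 ± 0.07 (SE; limma adjusted p = 0.0192), to 1.23 times its control level. Mga did not pass without control replicate 1 (0.0687), control replicate 3 (0.0531) or 4EGI-1 replicate 1 (0.0598, all adjusted p), and the difference stayed between 0.25 and 0.34 when any 1 array was left out.

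**Figure D2:**
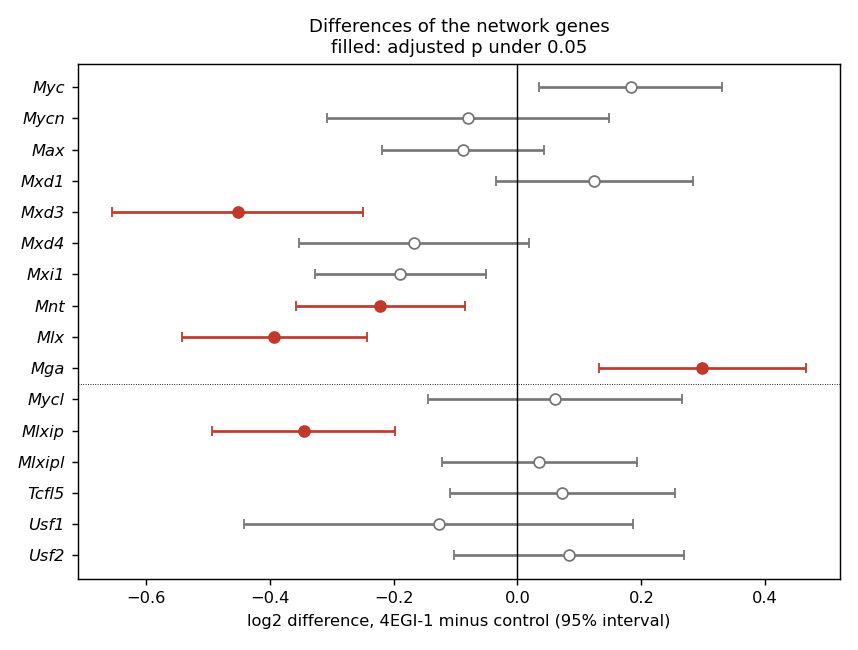
Log2 difference (4EGI-1 minus control) of the 10 members, above the dotted line, and of 6 other network genes, below it; lines are 95% intervals before adjustment, and filled red points passed at an adjusted p under 0.05. Mxd3, Mlx, Mnt and Mlxip lie to the left of 0 and Mga to the right, while the intervals of Mycn, Max, Mxd1 and Mxd4 include 0.

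Counted over arrays, the groups did not overlap in 9 of the 10 members, with 3 higher (Myc, Mxd1 and Mga) and 6 lower (Max, Mxd3, Mxd4, Mxi1, Mnt and Mlx). Over all genes the groups did not overlap in 37.9%, with 17% higher and 20.8% lower, and in 55.3% of genes no dimmer than the table median. With 3 arrays against 3, the exact two-sided permutation test cannot give a p below 0.10, and these 9 members reached that value. The 6 other network genes comprised 0 that rose, 1 that fell (Mlxip) and 5 that did not pass, with a median difference of 0.05; at an unadjusted p under 0.05 limma also gave 0 higher and 1 lower. Beside Mycl, Mlxip and Mlxipl these were the E-box binding factors Usf1 (-0.13 ± 0.14, SE), Usf2 (0.08 ± 0.08) and Tcfl5 (0.07 ± 0.08).

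The 5 genes whose pattern over the 6 arrays lay closest to that of Myc were Clptm1, Myo9a, Shq1, Mrtfb and Shmt2. Likeness was the mean absolute distance of log2 values centred on each gene's own mean, over 6 arrays and among 11058 other genes no dimmer than the table median. The distances were 0.007 for Clptm1, 0.013 for Myo9a and for Shq1, and 0.016 for Mrtfb and for Shmt2. Because the choice used the same array values, their log2 differences of 0.17 to 0.21, beside 0.18 for Myc, are a description of the choice.

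Myc cofactors, the proteins that Myc recruits to open chromatin and release paused RNA polymerase, moved in both directions. Of 17 measured genes of 18 listed, 7 rose, 3 fell and 7 did not pass, with a median log2 difference of 0.07 beside -0.03 over all genes. The share that passed was 58.8%, beside 22.9% of all genes and 36.1% of those no dimmer than the table median, where all 17 lay. Smarca4, the ATPase of the SWI/SNF remodeller, rose by 0.99 ± 0.07 (SE; limma adjusted p = 8.26e-05). The Tip60 complex genes Ep400 and Trrap, whose products bind the Myc transactivation domain, rose by 0.77 ± 0.07 and 0.70 ± 0.07. A second, dimmer probe set of Trrap was at 0.55 ± 0.06, and the mean of both gave 0.63. Pim1, a kinase that cooperates with Myc in lymphoma, fell by 0.33 ± 0.08 (adjusted p = 0.0151), Wdr5, which anchors Myc on chromatin, by 0.25 ± 0.07 (0.0362) and Cdk9, the kinase of P-TEFb, by 0.26 ± 0.08 (0.0455). Each of these 3 falls lost its call when certain arrays were left out. Pim1 did not pass without control replicate 1, 4EGI-1 replicate 1 or 4EGI-1 replicate 2 (adjusted p = 0.0502 to 0.0566). Wdr5 passed when 4EGI-1 replicate 1 was left out and not when any other array was (0.0866 to 0.113), and Cdk9 passed when control replicate 3 was left out and not when any other was (0.0744 to 0.141). With 1 array left out the number that fell was 0 to 2, and it was 0 without control replicate 1 or 4EGI-1 replicate 2.

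The corepressors that Mxd proteins and Mnt bring to DNA came next. Of 11 measured of 13 listed, 3 rose, 2 fell and 6 did not pass, with a median of -0.02. The share that passed was 45.5%, beside 22.9% of all genes and 36.1% of those no dimmer than the table median, where all 11 lay. After quantile normalization 1 gene fell. Arid4a and Arid4b, subunits of the Sin3 histone deacetylase complex, rose by 0.56 ± 0.07 and 0.37 ± 0.07 (SE). Sin3a, the scaffold to which Mxd proteins bind, rose by 0.27 ± 0.07 (limma adjusted p = 0.0287). Sap30, another subunit, fell by 0.28 ± 0.06, and the deacetylase gene Hdac2 by 0.23 ± 0.06 (adjusted p = 0.0239). Sin3a did not pass without control replicate 2, control replicate 3, 4EGI-1 replicate 1 or 4EGI-1 replicate 2 (0.0649 to 0.0897). Hdac2 passed without 4EGI-1 replicate 1 and not without any other array (0.0529 to 0.0832), which left 1 gene that fell.

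Genes of Myc protein turnover are of interest because Myc is short-lived and is marked for the proteasome by ubiquitin ligases. Of 19 measured of 20 listed, 5 rose, 5 fell and 9 did not pass, with a median of -0.07. The share that passed was 52.6%, beside 22.9% of all genes. Among genes no dimmer than the table median, where all 19 lay, 36.1% passed. Fbxw7, the ligase subunit that recognises phosphorylated Myc and is often mutated in T-ALL, fell by 0.38 ± 0.06 (SE; limma adjusted p = 0.00257). A second, dimmer probe set of Fbxw7 was at -0.63 ± 0.06, and the mean of both gave -0.50. Skp2, another F-box protein that binds Myc, fell by 0.42 ± 0.06, and Aurka, a mitotic kinase that can shield N-Myc from Fbxw7, by 0.89 ± 0.07. On the other side were the ubiquitin ligase genes Trim32 (0.47 ± 0.06) and Huwe1 (0.35 ± 0.06) and the deubiquitinase gene Usp37 (0.43 ± 0.07). Without control replicate 3 or 4EGI-1 replicate 3, 3 genes fell. Protein levels were not measured.

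Regulators of Myc mRNA, a list of transcription factors and RNA-binding proteins, included 15 measured genes of 16 listed. The test was passed by 2 upwards and 3 downwards and missed by 10 (median -0.06). These are 33.3% that passed, beside 22.9% of all genes. Among genes no dimmer than the table median, where 13 of the 15 lay, 36.1% passed. With the trended prior 5 fell. Notch1 rose by 0.32 ± 0.06 (SE; limma adjusted p = 0.00625), and Ctcf, an insulator protein that binds the Myc locus, by 0.26 ± 0.06 (0.0123; 0.0519 without control replicate 3). The poly(C)-binding protein genes Pcbp2 and Pcbp1 fell by 0.42 ± 0.06 and 0.39 ± 0.08, and Nme2, a nucleoside diphosphate kinase that binds the Myc promoter, by 0.44 ± 0.07.

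Genes known to be induced by Myc had calls in both directions. Of 46 measured of 50 listed, 9 rose, 13 fell and 24 did not pass, with a median of -0.06. The share that passed was 47.8%, beside 22.9% of all genes and 36.1% of those no dimmer than the table median (17.3% upwards and 18.9% downwards), where 45 of the 46 lay. Those that rose included the nucleolar genes Mybbp1a (1.59 ± 0.07, SE) and Utp20 (1.07 ± 0.07) and Cad, the multifunctional enzyme of pyrimidine synthesis (1.10 ± 0.08). Those that fell included the G1 cyclin gene Ccnd2 (-0.69 ± 0.09) and the ribosome assembly genes Nop16 (-0.62 ± 0.10) and Nip7 (-0.43 ± 0.07).

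Among genes that Myc represses, 16 of 17 listed were measured, and 2 rose while 2 fell and 12 missed the threshold (median -0.03). The share that passed was 25%, beside 22.9% of all genes. Among genes no dimmer than the table median, where 12 of the 16 lay, 36.1% passed. Gadd45a, a growth arrest and stress gene, rose by 1.16 ± 0.07 (SE) and Dusp1, a MAP kinase phosphatase gene, by 0.67 ± 0.07. Trp53inp1, a p53 target, fell by 0.77 ± 0.06 and Ndrg2 by 0.29 ± 0.08 (limma adjusted p = 0.0430). Ndrg2 passed without 4EGI-1 replicate 1 and not without any other array (0.0580 to 0.124), which left 1 gene that fell. The cell cycle inhibitor gene Cdkn1b, chosen after its value was seen, differed by 0.00 ± 0.06.

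Known targets of Mlx dimers, with either Mlxip or Mlxipl, comprised 11 genes, all measured. The list did not separate targets by partner. By limma 4 rose and 0 fell, with 7 that missed the threshold and a median of 0.09. The share that passed was 36.4%, all of it upwards. Only 3 rose with the replicate block, with the mean of probe sets, or without any 1 array other than 4EGI-1 replicate 2. With either filter on low signal, quantile normalization, the trended prior or array weights, 5 rose. Over all genes 22.9% passed and 11.5% rose. Among genes no dimmer than the table median, where 8 of the 11 lay, 36.1% passed and 17.3% rose. At an unadjusted p under 0.05 the number that fell was again 0. Arrdc3, an alpha-arrestin gene, rose by 1.99 ± 0.09 (SE), Hk2, a hexokinase gene, by 0.75 ± 0.08 and the transketolase gene Tkt by 0.51 ± 0.07. The other gene that rose, Acaca, chosen after its values were seen, was at 0.22 ± 0.06 (SE; limma adjusted p = 0.0316). A second probe set of Acaca was at 0.19 ± 0.10 and did not pass (0.226). The 2 targets most closely tied to the Mlx and Mlxip dimer, chosen after their values were seen, did not pass. Txnip differed by -0.02 ± 0.13 (limma adjusted p = 0.948) and Arrdc4 by -0.05 ± 0.06 (0.649). Arrdc4 was dim, with a mean log2 signal of 4.98 in controls and 4.94 with 4EGI-1. These means lay below the 25th percentile of the table (5.21), so a fall of Arrdc4 could hardly have been seen.

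**Figure D3:**
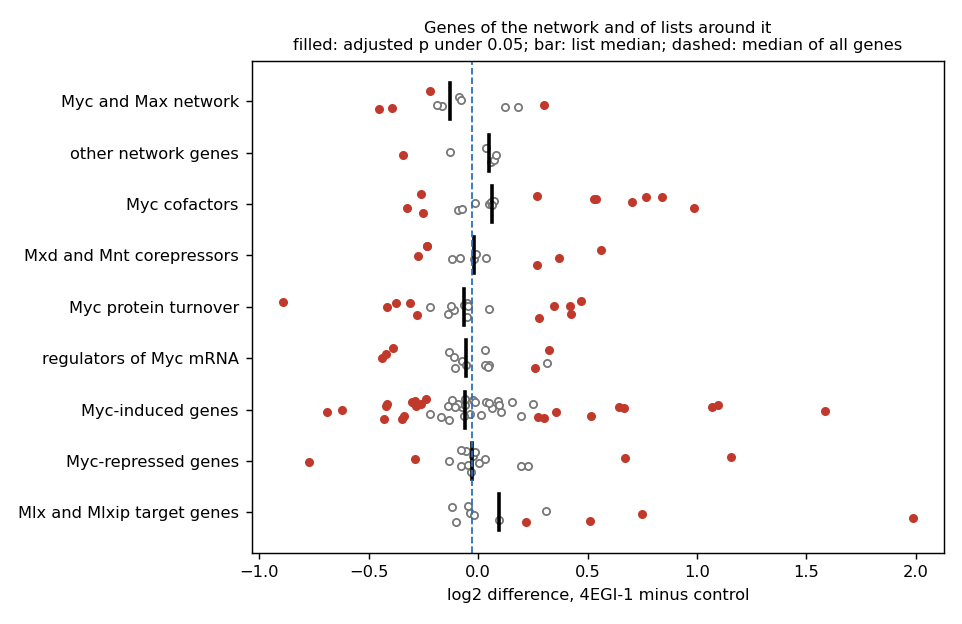
Log2 difference (4EGI-1 minus control) of every measured gene of the Myc and Max network and of 8 lists around it; points are genes, filled red where the adjusted p was under 0.05, black bars are list medians and the dashed line is the median of all genes. The list medians lie between -0.13 and 0.09, and 7 of the 8 other lists hold red points on the left and 7 on the right of 0.

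The label of a T-lineage cell was checked against markers. Of 12 measured T-cell markers of 14 listed, 8 lay at or above the 75th percentile of genes by signal, among them Cd3e, Cd3g, Thy1 and Rag1, while 0 of 6 B-cell, 0 of 8 myeloid, 0 of 5 erythroid and 1 of 7 stromal and endothelial markers (Pecam1) did. Cd5 was the lowest T-cell marker, at the 53.8th percentile, and Bcl11b (69.6th), Cd2 (71.1st) and Zap70 also lay below that cut. Summed linear signal of the T-cell markers was 28311 to 29290 in controls and 25933 to 26609 with 4EGI-1, with 1 marker higher and 5 lower. That of the B-cell markers was 355 to 365 in controls and 406 to 423 with 4EGI-1, with 1 marker higher (Blnk, 0.99 ± 0.11, SE). The 6 B-cell markers lay between the 7.56th percentile of genes by signal (Ms4a1) and the 51.6th (Blnk), with Pax5 at the 50.8th, Cd79b at the 44.2nd, Cd79a at the 16.9th and Ebf1 at the 13.2nd. The sums of myeloid (447 to 478 and 441 to 463), erythroid (458 to 506 and 451 to 473) and stromal and endothelial markers (1107 to 1126 and 1046 to 1070) held 0 genes that passed with limma, and 1, 1 and 0 were lower at an unadjusted p under 0.05. The part of these shifts in the values of the network genes was not tested, and in bulk RNA fewer cells of a type and less RNA per cell cannot be told apart. Since RNA of the polysome fractions alone was used here, a change in ribosome loading and a change in the amount of an mRNA cannot be told apart either. Median log2 signal per array was 6.38 to 6.43, arrays of 1 group correlated at 0.996 to 0.997 across genes and arrays of different groups at 0.988 to 0.990. The small number of arrays limits precision.

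**Figure D4:**
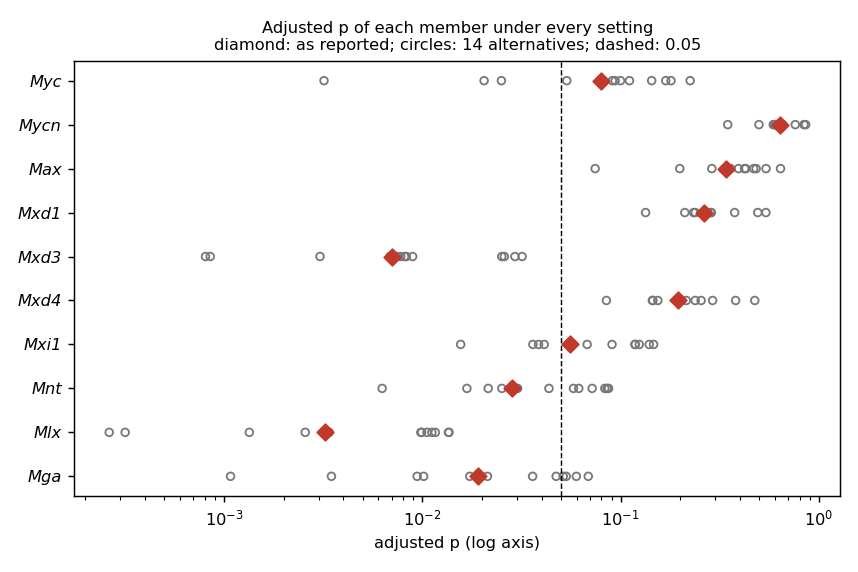
Adjusted p of each member on a log axis as reported (red diamond) and under 14 alternatives each (open circles); the dashed line is the threshold of 0.05. Mxd3 and Mlx stay left of the line, Mycn, Max, Mxd1 and Mxd4 stay right of it, and Myc, Mxi1, Mnt and Mga have circles on both sides.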

How the data were processed

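Polysomal RNA of 3 control and 3 treated samples was measured on 1 array each. Per the submitters' processing notes the authors ran RMA, and the deposited table holds a log2 signal for each probe set; its settings and version were not given in the sources used here. This method usually equalises arrays, so a level is relative to the rest of its array, and signals of different probe sets were set side by side as percentiles or against the table median, for description and filters. Of 34760 probe sets, 21640 had 1 gene symbol in the platform annotation. For 21553 of these the Entrez identifier was found in RefSeq (GRCm38.p6) and the RefSeq symbol was used, whether or not it differed. The probe set with the highest mean was kept, giving 19937 genes. Each member had 1 probe set.

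Differences were fitted over all genes with lmFit and eBayes (limma 3.58.1, R 4.3.3) without filter or further normalization; adjusted p-values are two-sided Benjamini-Hochberg values over all genes, called at 0.05. Standard errors (SE) are moderated and 95% intervals use them with 8.15 degrees of freedom. The fit was tested on simulated data. P-values measure the spread between these samples, which may be technical. No pair of arrays was close enough in its values to be taken for a repeat deposit (smallest median absolute difference within a group 0.0927).

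The members and lists were chosen with earlier results of these data known. Named were the members, the other network genes, up to 3 genes per list and direction with the smallest adjusted p, and the 5 genes nearest to Myc; Blnk and others said to be so were chosen after their values were seen. Alternatives were the replicate block, filters at the median or 25th percentile of the table, array weights, a trended robust prior, quantile normalization, testing every probe set, the mean of probe sets, leaving out each array and a threshold of 0.01. For lists, leaving out arrays was added after seeing the data.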

Additional observations from a re-analysis of the deposited data

How the results depend on the processing

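Of 140 member results under alternatives (14 for each of the 10 members), 122 kept their direction and side of the threshold. With the replicate number as a block, Mnt was at -0.22 (adjusted p = 0.0615), Mga at 0.30 (0.0514) and 0 members were higher. In that fit Wdr5 (0.0563) and Cdk9 (0.0684) did not pass either, which left 1 Myc cofactor lower. The numbers were not taken to pair the samples, since the labels do not say that they do. Deviations of same-numbered arrays correlated at 0.06, 0.11 and -0.02, and those of different-numbered arrays at -0.11 to 0.055. Such values cannot settle whether the samples were paired. Myc passed at 0.18 when genes below the table median were left out and with a trended prior, and at 0.24 after quantile normalization, and in these 3 settings 2 members were higher. Mxi1 passed at -0.19 in the same 3 and with a filter at the 25th percentile (adjusted p = 0.0361). Without 1 array, Mycn ranged from -0.16 to 0.028, Mnt from -0.25 to -0.20, Mga from 0.25 to 0.34 and members higher from 0 to 1; Mycl ranged from -0.030 to 0.13 and Mlxipl from -0.0098 to 0.065. At an adjusted p under 0.01, 0 members were higher, 2 were lower, and 1488 and 1248 of all genes were higher and lower. Fewer samples or a stricter threshold bear on the left-out and 0.01 values by construction; otherwise the cause was not tested. Of 46 other named genes, 591 values kept direction and side, 32 lost and 16 gained a call and 2 changed sign. The mean of probe sets and the test of every probe set changed no member. Each had 1 probe set, so these settings could hardly alter its result. No detection calls were used, so genes near background were tested like the rest.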
